A study of Saccharomyces cerevisiae with 4 samples.

Results

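The 5S ribosomal RNA genes of budding yeast, Saccharomyces cerevisiae, lie on chromosome XII in and beside the ribosomal DNA (rDNA). They were taken as the genes of that chromosome whose symbol begins with RDN5- in the RefSeq table of assembly R64. This gave 6 genes, RDN5-1 to RDN5-6, of 6431 nuclear genes in the table. The copies are near identical, so they are not independent of each other. Binding of Swc4, a subunit shared by the SWR1 remodeler and the NuA4 acetyltransferase, was mapped by chromatin immunoprecipitation and sequencing (ChIP-seq) with an antibody against myc. All groups were untreated haploid cells of the BY background, grown in rich YPD medium to mid-log phase, with 13 myc copies on Swc4 in each of them. The yaf9d group also carries a deletion of YAF9, per the sample titles, and has 2 libraries. Yaf9 is a histone-binding subunit of the same complexes. The wild_type group, which carries the tag and no named deletion, also has 2 libraries. Whether the 2 libraries of a group were grown as separate cultures is not in the labels, so p-values and SDs measure a spread that may be technical.

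Yeast rDNA is a long tandem array in which each repeat holds a 35S gene and a 5S gene on opposite strands. RNA polymerase I transcribes the 35S precursor (RDN37), which is processed into 18S, 5.8S and 25S rRNA (RDN18, RDN58, RDN25). RNA polymerase III transcribes the 5S gene with the help of TFIIIA and TFIIIC, which bind control elements inside the gene, and of TFIIIB, which is placed upstream of the start. Between the 3′ ends of the 5S and 35S genes lies a nontranscribed spacer that holds the replication fork barrier bound by Fob1. The spacer on the other side holds the 35S promoter and a replication origin. The reference sequence shows only a short piece of the array, so reads from all repeats are drawn to few positions.

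In the R64 table RDN5-1 lies between RDN37-1 and RDN37-2, and RDN5-2 lies between RDN37-2 and ASP3-1. RDN5-3, RDN5-4 and RDN5-5 each stand between ASP3 genes, which are repeated genes for a cell-wall asparaginase. RDN5-6 is the outermost copy, past ASP3-4. The annotated length is 121 bp for RDN5-1 and RDN5-6 and 119 bp for the other 4 copies. All 6 are on the Watson strand and both 35S genes on the Crick strand.

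The lists hold 616 and 1139 nuclear peaks in yaf9d replicates 1 and 2, and 884 and 704 in wild_type replicates 1 and 2. They give no read totals, so depth is unknown, and the absence of a peak does not show that a gene was unbound. At the YAF9 gene the nearest peak began 1 bp past the annotated gene in both yaf9d libraries, while no peak lay on the gene or within 300 bp of it in either wild_type library.

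Swc4 peaks lay at RDN5-1, RDN5-2 and RDN5-6 in both yaf9d libraries, at RDN5-1 and RDN5-6 in wild_type replicate 1, and at RDN5-6 alone in wild_type replicate 2. A gene was counted when a peak overlapped it or the 300 bp on either side by 1 bp or more. This gave 3 and 3 of 6 genes in yaf9d against 2 and 1 of 6 in wild_type. The same rule called 13.2% and 21.0% of all nuclear genes in yaf9d replicates 1 and 2, and 19.4% and 17.7% in wild_type replicates 1 and 2. The members' share was thus above that of all genes in 3 libraries and just below it in wild_type replicate 2, where 1 of 6 is 16.7%. RDN5-3, RDN5-4 and RDN5-5 had no peak in any library, as had 64.6% of all nuclear genes.

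**Figure D1:**
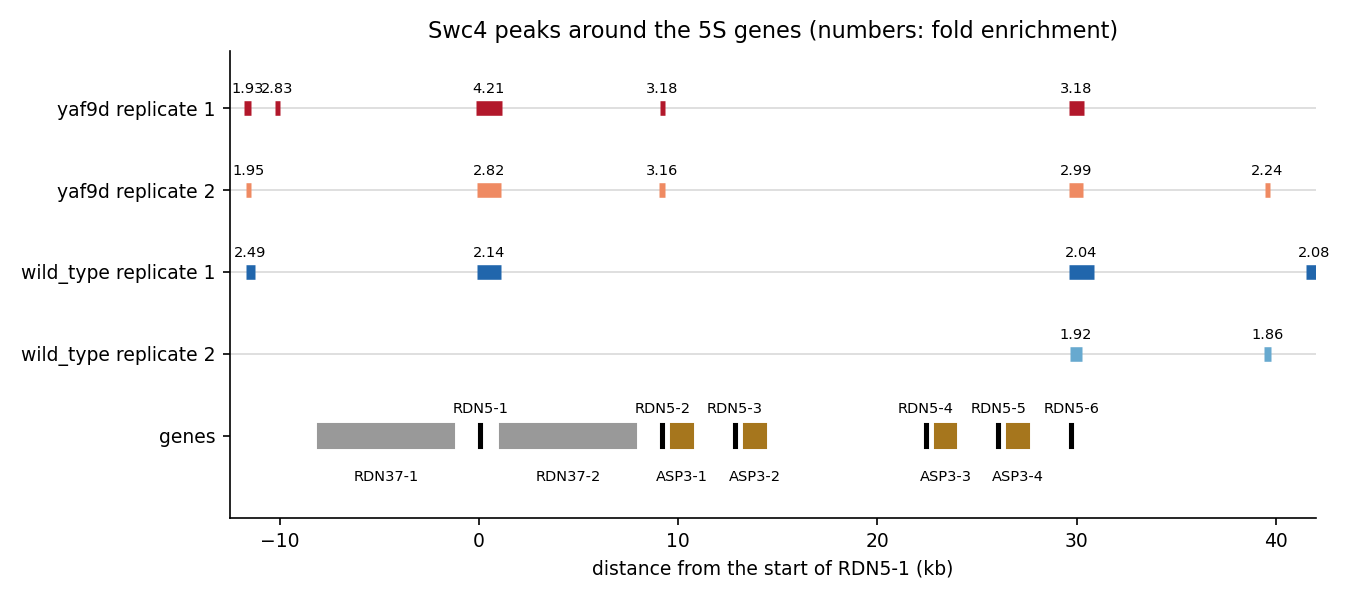
Swc4 peaks of the 4 libraries around the 5S genes, drawn to scale against distance from the start of RDN5-1 in kb. Bars are peak intervals, with the authors' fold enrichment above each, and the lowest row shows RDN5 genes in black, RDN37 in grey and ASP3 in brown. Peaks sit on RDN5-1, RDN5-2 and RDN5-6, and no peak lies from RDN5-3 to RDN5-5.

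The count of covered 5S genes averaged 3 ± 0 in yaf9d and 1.5 ± 0.707 in wild_type (SD, n = 2 each). The difference of 1.5 genes was larger than the spread between replicates, and the genotypes did not overlap. Permuting the 4 library values gave an exact two-sided p = 0.333, the smallest that 2 against 2 allows, so the test could not pass 0.05. RDN5-2 was the copy with a call in each yaf9d library and in no wild_type library, a pattern shown by 2.39% of all nuclear genes. RDN5-1 was called in every library but wild_type replicate 2, as were 1.06% of all nuclear genes. RDN5-6 was called in all 4 libraries, as were 5.50% of them.

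RDN5-1, the copy within the 35S repeats, carried the peak with the best q-value in each library that called it. The authors' −log10 q was 2909 and 1221 in yaf9d replicates 1 and 2 and 495 in wild_type replicate 1. The next best peak of the same lists, at the right end of chromosome VIII, had 551, 597 and 270. The intervals ran on chromosome XII from 459504 to 460825 and from 459551 to 460795 in yaf9d, and from 459569 to 460767 in wild_type replicate 1. In wild_type replicate 2 the nearest peak was 29530 bp away from the gene.

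The fold enrichment at RDN5-1 was moderate for its list. The authors' fold, which is the summit pileup over a local background, was 4.21 and 2.82 in yaf9d and 2.14 in wild_type replicate 1. These folds ranked 129 of 616, 224 of 1139 and 263 of 884, or within the strongest 20.9%, 19.7% and 29.8% of the lists. A rank by q-value thus placed the peak at the head of each of these lists, and a rank by fold placed it behind more than 100 others. Folds belong to their own lists and were not tested between them.

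The height of the signal at RDN5-1 set it apart from every other peak of its list. Pileups and backgrounds were solved from each peak's fold and p-value, and are on the scale of the authors' peak caller. The summit pileup was 9922 and 7191 in yaf9d and 5053 in wild_type replicate 1, against list medians of 132, 146 and 131.5. The local background was 2355 and 2549 in yaf9d and 2366 in wild_type replicate 1, against list medians of 46.5, 71.3 and 64.5. Both pileup and background ranked 1 in each of these lists, among peaks with a recovered pileup. Background was 50.7, 35.8 and 36.7 times the list median, and pileup 75.2, 49.3 and 38.4 times. Since many repeats share this reference position, neither value is a level per repeat, and the number of repeats in each library is not given in the sources used here. With repeat number unknown, its part in these values was not tested.

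**Figure D2:**
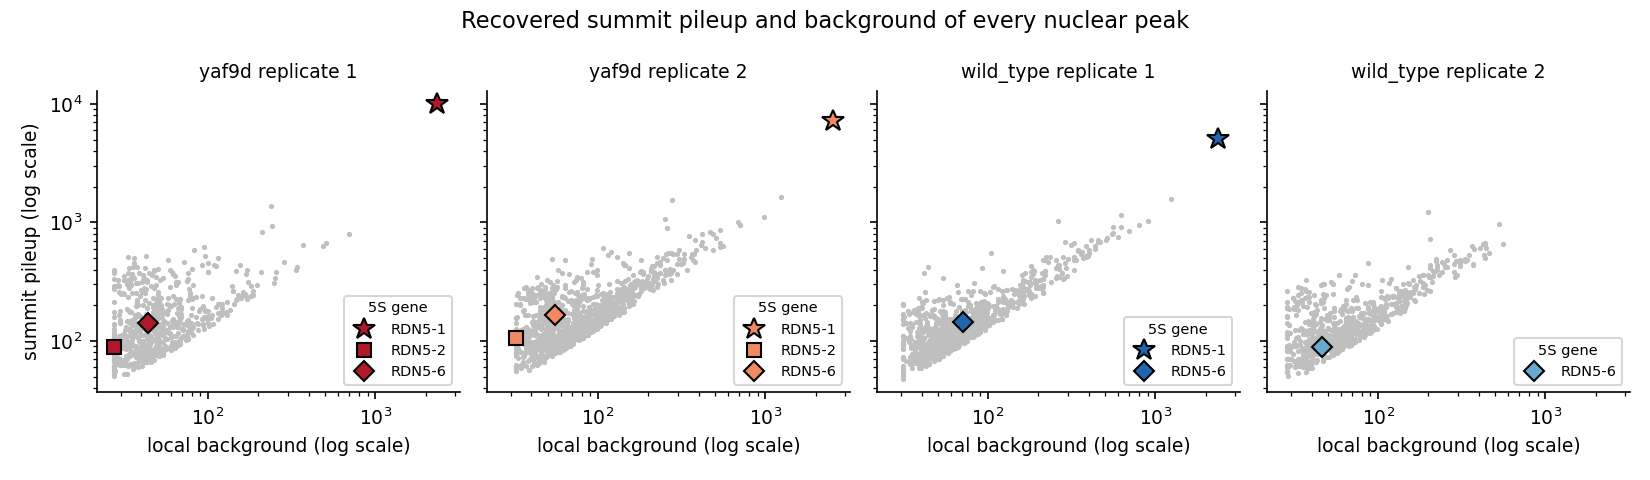
Recovered summit pileup against local background of every nuclear peak (grey points), 1 panel per library, on log scales in reads as the caller scaled them. Symbols mark the peaks at RDN5-1, RDN5-2 and RDN5-6. RDN5-1 lies far from all other peaks in the 3 libraries that called it, with pileups of 9922, 7191 and 5053.

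The RDN5-1 peak covered the 5S gene together with the whole spacer on its 3′ side. It began 172 and 125 bp before the 5′ end of the gene in yaf9d and 107 bp before it in wild_type replicate 1. It covered all 121 bp of the gene and all 915 bp up to RDN37-2 in each of these libraries. The spacer on the 5′ side, 1243 bp long, was covered for 13.8% and 10.1% in yaf9d and 8.61% in wild_type replicate 1. A spacer of the same length lies before RDN5-2, so low coverage here and reads assigned to another copy cannot be told apart. The summit of the RDN5-1 peak lay 530 and 528 bp downstream of the 5′ end in yaf9d and 878 bp downstream in wild_type replicate 1. It was therefore in the 3′ spacer and not in the 5S gene, and the yaf9d summits were 2 bp apart.

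RDN5-2, which stands at the outer edge of the 35S repeats, had a narrow peak in yaf9d alone. The intervals were on chromosome XII from 468733 to 469003 and from 468728 to 468991 in yaf9d replicates 1 and 2. The folds were 3.18 (95% counting interval 2.56 to 3.91) and 3.16 (2.59 to 3.83). These intervals are exact Poisson intervals of the pileup with the background held fixed, and cover counting error only. The −log10 q was 18.4 and 21.5, and the fold ranks were at 35.6% and 15.2% of the lists. No wild_type library had a peak here, with the nearest 8046 bp away in replicate 1 and 20395 bp away in replicate 2. Both yaf9d summits lay inside the gene, 67 and 43 bp from its 5′ end.

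The signal at RDN5-2 was low in absolute terms. The summit pileup was 89 and 105, over backgrounds of 27.3 and 32.5, which were at or near the lowest background found in each list (27.3 and 32.5). These lowest values recurred at many other peaks of the same lists, so they need not be backgrounds particular to RDN5-2. The pileup at RDN5-1 was 111 and 68.5 times that at RDN5-2 in the same libraries. YLR154C-H, a small open reading frame annotated on the other strand across RDN5-2, shared its peak.

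RDN5-6, the outermost copy, was the 5S gene with a peak in all 4 libraries. The intervals on chromosome XII ran from 489277 to 490032 and from 489278 to 490018 in yaf9d, and from 489286 to 490554 and from 489326 to 489929 in wild_type. The folds were 3.18 (95% counting interval 2.68 to 3.74) and 2.99 (2.55 to 3.47) in yaf9d replicates 1 and 2, against 2.04 (1.72 to 2.40) and 1.92 (1.54 to 2.35) in wild_type replicates 1 and 2. Both yaf9d folds were thus higher than both wild_type folds. The highest folds separated in this way at 47.2% of the 354 nuclear genes with a peak in all 4 libraries, so the order at RDN5-6 was a common one.

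Ranked by fold within their own lists, the RDN5-6 peaks of the genotypes overlapped, and ranked by q-value they did not. The fold rank was at 35.9% and 17.9% of the list in yaf9d and at 34.4% and 50.1% in wild_type. The mean difference of -15.4 percentage points, where a negative value means a stronger rank in yaf9d, had an exact two-sided permutation p = 0.667. By q-value the rank was at 34.9% and 19.8% in yaf9d and at 36.3% and 65.6% in wild_type, a difference of -23.6 percentage points (exact two-sided permutation p = 0.333, the lowest 2 against 2 can give). The fold rank difference was -24.4 without yaf9d replicate 1, -6.39 without yaf9d replicate 2, -23.2 without wild_type replicate 1 and -7.50 without wild_type replicate 2. Summit pileups were 142 and 167 in yaf9d and 145 and 89 in wild_type, over backgrounds of 44.0 and 55.3 in yaf9d and 70.6 and 46.0 in wild_type. These values were near the list medians, unlike those of RDN5-1.

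**Figure D3:**
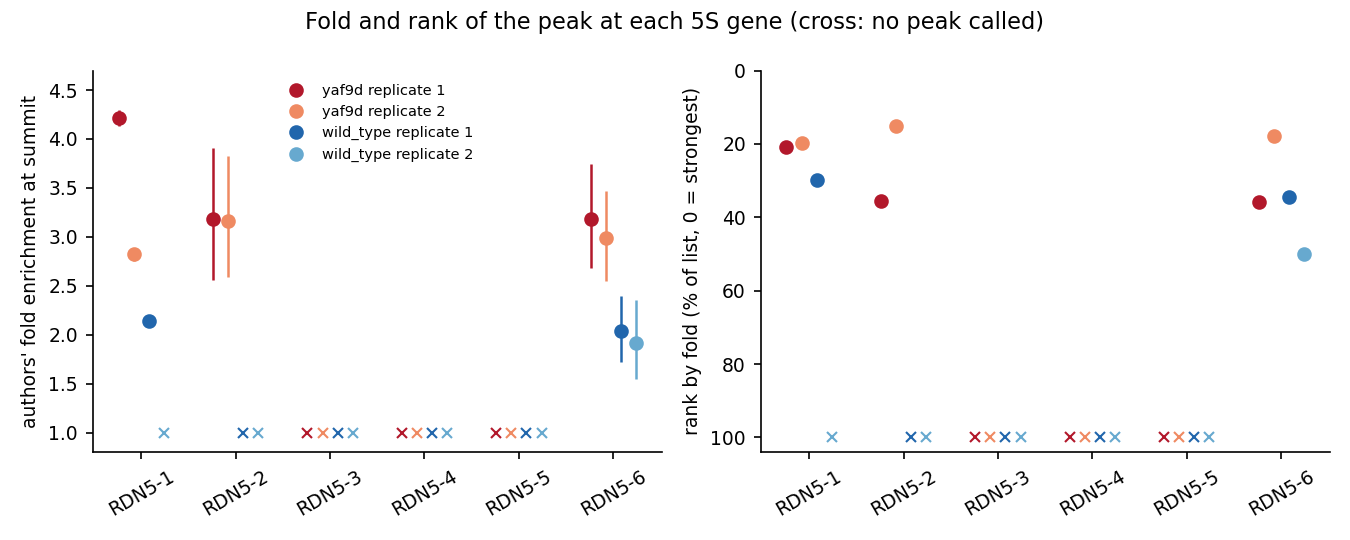
Left, the authors' fold enrichment of the peak at each 5S gene per library, with 95% counting intervals as lines. Right, the rank of that fold as a percentage of the library's list, with 0 at the strongest, and crosses mark genes with no peak in a library. RDN5-6 has folds of 3.18 and 2.99 in yaf9d and 2.04 and 1.92 in wild_type, while its ranks by fold overlap.

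The summit at RDN5-6 lay at the 3′ end of the gene in 3 libraries. It was 119 and 117 bp from the 5′ end in yaf9d, 1 and 3 bp before the 3′ end. It was 567 and 142 bp from the 5′ end in wild_type replicates 1 and 2. The wild_type replicate 1 peak was also the widest, at 1269 bp, against 756 and 741 bp in yaf9d and 604 bp in wild_type replicate 2. The mean offset differed by -236.5 bp (yaf9d minus wild_type), but by -24 bp without wild_type replicate 1. All 4 peaks covered the whole 357 bp of YLR162W, the open reading frame next to RDN5-6, as well as the 5S gene. The wild_type replicate 1 summit lay inside YLR162W, and that peak also reached RRT15. On the 5′ side all 4 peaks overlapped the open reading frame YLR161W, by 65 and 64 bp in yaf9d and 56 and 16 bp in wild_type.

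**Figure D4:**
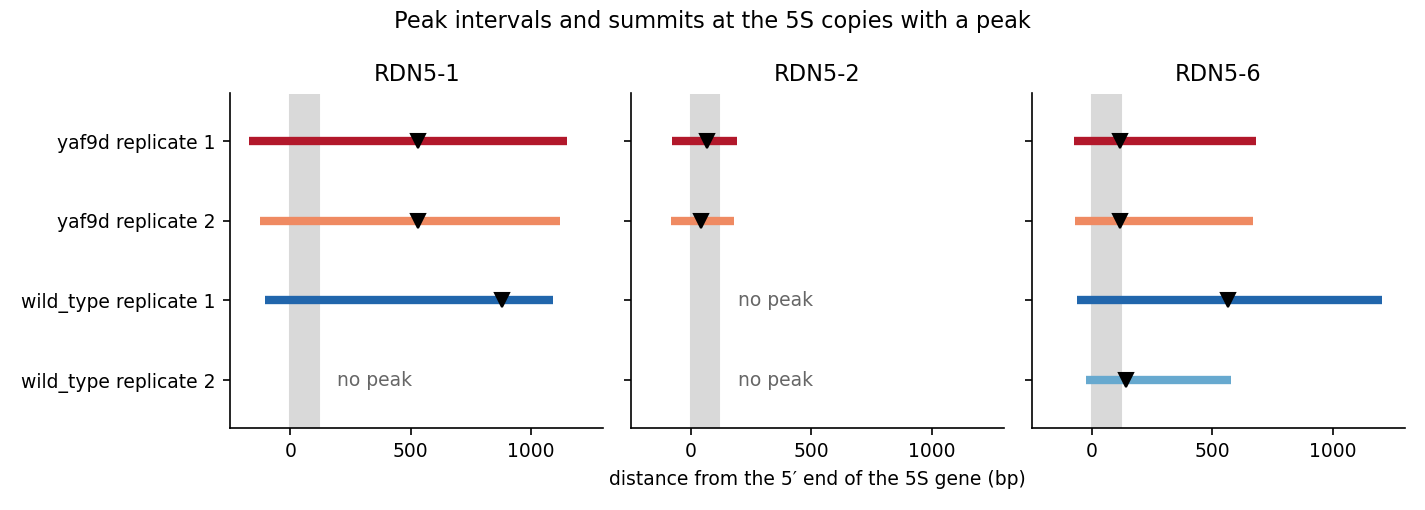
Peak intervals (bars) and summits (triangles) at the 3 5S copies with a peak, in bp from the 5′ end of the gene, with the gene body shaded. The yaf9d summits at RDN5-1 lie at 530 and 528 bp, those at RDN5-2 inside the gene and those at RDN5-6 at its 3′ end.

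RDN5-3, RDN5-4 and RDN5-5, the copies set between ASP3 genes, stood well clear of any peak. The nearest peak to RDN5-3 was 3462 and 3474 bp away in yaf9d and 11698 and 16743 bp away in wild_type. For RDN5-4 it was 7114 and 7115 bp away in yaf9d and 7123 and 7163 bp away in wild_type. For RDN5-5 it was 3462 and 3463 bp away in yaf9d and 3471 and 3511 bp away in wild_type. None of the 4 ASP3 genes had a peak within 300 bp in any library. The same was true of 64.6% of all nuclear genes. How reads that match several copies were placed is not given in the sources used here, so a missing peak at these copies and reads assigned to another copy cannot be told apart.

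The position of the summits matters for the count. When a summit, and not an interval, had to lie within the gene or its flanks, RDN5-1 dropped out in every library and RDN5-6 in wild_type replicate 1, and 2 and 2 of 6 genes were left in yaf9d against 0 and 1 in wild_type. The share of all nuclear genes under that rule was 8.43% and 16.2% in yaf9d and 13.8% and 10.5% in wild_type. With peaks of fold 2 or more, 3 and 3 genes were left in yaf9d and 2 and 0 in wild_type, where all nuclear genes stood at 9.36% and 9.21% in yaf9d and at 7.76% and 8.24% in wild_type.

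Little of the Swc4 peaks called at this locus lay on its 35S genes. RDN37 is annotated in 2 copies of 6858 bp, and how reads that match both were placed is not given. Few calls on these genes and reads assigned elsewhere thus cannot be told apart. The 8 features are RDN37, RDN25, RDN58 and RDN18, each in 2 copies. With 300 bp flanks, 2 and 2 of 8 had a peak in yaf9d and 2 and 0 in wild_type. This is 25% and 25% in yaf9d and 25% and 0% in wild_type. All nuclear genes stood at 13.2% and 21.0% in yaf9d and at 19.4% and 17.7% in wild_type. The features with a peak were RDN37-2 and RDN25-2, and in each case the peak was that of RDN5-1 reaching across the spacer. RDN25-2 lies inside RDN37-2, so this is 1 peak counted for 2 features. It covered 114 and 84 bp of the 6858 bp of RDN37-2 in yaf9d and 56 bp in wild_type replicate 1, all at the 3′ end of the gene. RDN25-2 itself was 98 and 128 bp away from the peak in yaf9d and 156 bp away in wild_type replicate 1, and was counted through its flank.

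No summit lay inside RDN37-1 or RDN37-2 in any library. RDN37-1, both RDN18 copies, both RDN58 copies and RDN25-1 had no peak within 300 bp in any library. These are 6 of the 8 features, or 75%, against 64.6% of all nuclear genes. The difference between genotypes was 1 feature (exact two-sided permutation p = 1), with means of 2 ± 0 in yaf9d and 1 ± 1.41 in wild_type (SD, n = 2 each). It was smaller than the spread in wild_type. It was 0 without wild_type replicate 2 and 2 without wild_type replicate 1.

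Other genes of RNA polymerase III gave a frame for the 5S values. SCR1, which encodes the signal recognition particle RNA, ranked by fold at 16.1% and 8.60% of the lists in yaf9d and at 15.4% and 12.2% in wild_type. RPR1, which encodes the ribonuclease P RNA, ranked at 28.7% and 18.8% in yaf9d and at 21.4% and 18.3% in wild_type. SNR52, a small nucleolar RNA, had a peak in yaf9d replicate 1 at 34.7% and in wild_type replicate 1 at 10.6%, and none in the other libraries. SNR6, the U6 spliceosomal RNA, had no peak in any library. The ranks of the RDN5-6 peak were weaker than those of SCR1 in all 4 libraries and weaker than those of RPR1 in all but yaf9d replicate 2.

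Transfer RNA genes, the largest class read by polymerase III, had a peak at 98 and 107 of 275 in yaf9d and at 64 and 76 in wild_type. This is 35.6% and 38.9% in yaf9d and 23.3% and 27.6% in wild_type, against 50% and 50% in yaf9d and 33.3% and 16.7% in wild_type for the 5S genes. The pattern of RDN5-2, called throughout yaf9d and not in wild_type, was shown by 9.45% of tRNA genes. The opposite pattern was shown by 2.55% of tRNA genes, by 3.47% of all nuclear genes and by 0 of the 6 5S genes. With 6 members, 1 gene is 16.7 percentage points, so the shares of the 5S genes move in coarse steps.

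**Figure D5:**
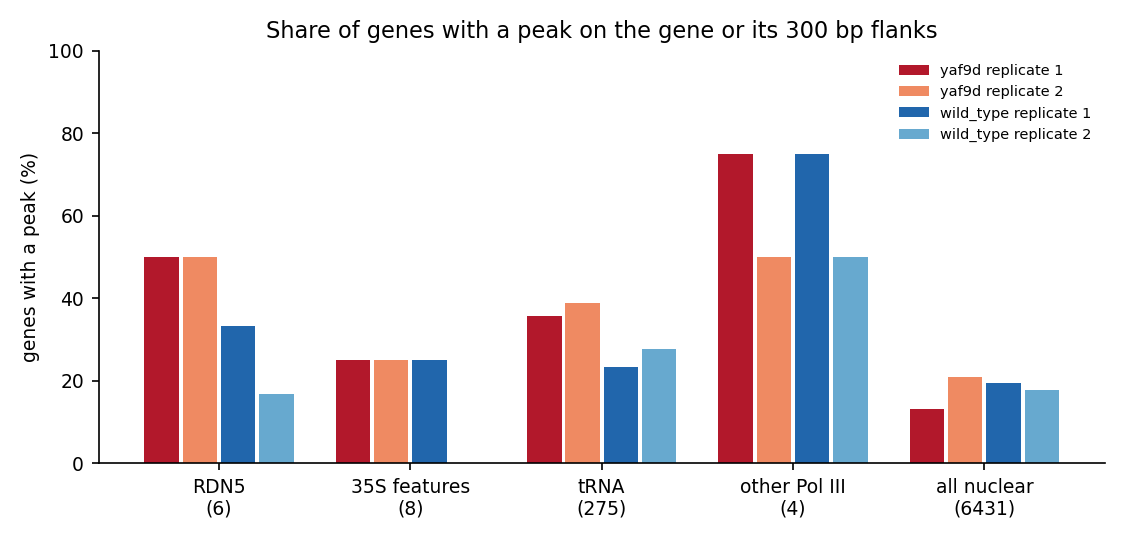
Share of genes with a Swc4 peak on the gene or its 300 bp flanks, in percent, by gene class and library, with the number of genes in brackets. The 5S genes stand at 50% in both yaf9d libraries and at 33.3% and 16.7% in wild_type, and all nuclear genes between 13.2% and 21.0%.

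RNA genes outside the rDNA were compared with the mean rank profile of the 6 copies, with 100% given where there was no peak. That profile was 65.4% and 58.8% in yaf9d and 77.4% and 91.7% in wild_type. It mixes called and uncalled copies, and no single copy had it. RDN5-6, for one, ranked at 35.9% and 17.9% in yaf9d and at 34.4% and 50.1% in wild_type. Of 389 RNA genes, the tRNA gene YNCG0039W was nearest to the mean profile, with a mean absolute difference of 6.31 percentage points over the 4 libraries. Its folds were 2.19 and 1.65 in yaf9d and 1.63 and 1.48 in wild_type. The tRNA genes YNCG0030C and YNCM0019W, the antisense RNA TBRT and the small nucleolar RNA SNR30 followed, at 12.0 to 14.7 percentage points.

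Genes for RNA polymerase III, its factors, the 5S ribonucleoprotein and rDNA chromatin were examined for a peak in their own promoter. The promoter was the 500 bp upstream of the coding start. Of the 35 listed genes, 2 and 5 had a promoter peak in yaf9d and 5 and 4 in wild_type. This is 5.71% and 14.3% in yaf9d and 14.3% and 11.4% in wild_type. All coding genes stood at 11.2% and 13.6% in yaf9d and at 15.9% and 14.3% in wild_type, so the listed genes were below the background in 3 libraries and just above it in yaf9d replicate 2. Counted instead on the gene with its 300 bp flanks, 2 and 5 of 35 had a peak in yaf9d and 11 and 8 in wild_type. This is 5.71% and 14.3% in yaf9d, against 12.2% and 20.1% of all coding genes, and 31.4% and 22.9% in wild_type, against 19.2% and 17.0% of all coding genes. By that count the genotypes did not overlap (difference of -6 genes, yaf9d minus wild_type, exact two-sided permutation p = 0.333, the lowest 2 against 2 can give), while by promoters they did (difference of -1, exact p = 1).

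RPL11A, which encodes a ribosomal protein that binds 5S rRNA, was the member with a promoter peak in all 4 libraries. Its folds were 8.34 and 4.62 in yaf9d and 4.36 and 6.27 in wild_type, and the genotypes overlapped. RPL5, whose product binds 5S rRNA with Rpl11, had none. TFC7, a TFIIIC subunit, had a promoter peak in yaf9d alone, with folds of 1.94 and 1.80. BDP1, a TFIIIB subunit, had it in wild_type alone, with folds of 1.78 and 1.51. The share of all coding promoters with such patterns was not computed. Counted on the gene with 300 bp flanks, 2.39% of all nuclear genes were called throughout yaf9d alone and 3.47% throughout wild_type alone. By the same count, 5.50% were called in all 4 libraries.

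By list, promoter counts lay on both sides of the share of all coding genes. That share was 11.2% and 13.6% in yaf9d and 15.9% and 14.3% in wild_type. Of 12 polymerase III subunits, 0 and 2 had a promoter peak in yaf9d and 1 and 1 in wild_type. In percent these are 0 and 16.7 in yaf9d and 8.33 and 8.33 in wild_type. Of 12 polymerase III factors, 1 and 2 had one in yaf9d and 2 and 1 in wild_type. In percent these are 8.33 and 16.7 in yaf9d and 16.7 and 8.33 in wild_type. PZF1, which encodes TFIIIA, had none in any library. Of 6 genes for the 5S ribonucleoprotein and its assembly, 1 and 1 had one in yaf9d and 1 and 2 in wild_type. This is 16.7% in 3 libraries, from RPL11A alone, and 33.3% in wild_type replicate 2. Each share was above that of all coding genes, but with 6 members a single promoter peak is enough for that. Of 5 rDNA chromatin genes, 0 and 0 had one in yaf9d and 1 and 0 in wild_type, where 1 gene is 20%. The single call was NET1, a nucleolar anchor of rDNA silencing, with a fold of 2.01 in wild_type replicate 1, while FOB1 and SIR2 had none.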

How the data were processed

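Each library has its own deposited peak list, called without pooling. The submitters' processing notes name BWA 0.7.15-r1140, SAMtools 1.4 and MACS2 2. The build, control, threshold and handling of multiply matching reads are not stated there. Columns used were the interval, the summit, the authors' ratio (fold at the summit over local background) and the authors' −log10 p-value and −log10 q-value. The deposited score repeats the q-value and was not used.

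Groups came from sample titles. Peaks on the 16 nuclear chromosomes were set against RefSeq R64 genes. The build was checked at tRNA genes: 88.3% of the 298 summits within 300 bp of a gene's middle were within 100 bp. Pileup was solved as the whole number that, with fold as pileup plus 1 over background plus 1, gave the listed Poisson −log10 p within 0.001, which worked for 99.5% to 99.9% of peaks per library. RDN5-1 needed a tolerance of 0.01. Overlap and pileup steps were tested on simulated data. Genotypes were compared by exact permutation.

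Named genes were all members, 35S and ASP3 features, genes beside or between the copies, 4 other polymerase III genes, list members with promoter peaks in both libraries of a genotype, and the 5 RNA genes most alike in rank. NET1, RPL5, FOB1, SIR2 and PZF1 were named after their values were seen. Members and lists were chosen with earlier results of these data known. Python 3.11.15, NumPy 2.4.6, SciPy 1.17.1 and pandas 2.3.3 were used.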

Additional observations from a re-analysis of the deposited data

Results flagged for a closer look

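Peaks on the mitochondrial genome, which enter no comparison here, numbered 39 in yaf9d replicate 2 and 0 in the other 3 libraries. They were singled out as data left out of the analysis, and they appear in 1 library only, not in the other yaf9d library.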

How the results depend on the processing

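The yaf9d minus wild_type difference in covered 5S genes kept its direction under all 11 alternatives. Leaving out a library or adding the replicate block could not reverse it, since both yaf9d counts lay above both wild_type counts. The other alternatives largely counted the same peaks again. The difference was 1.5 to 2 genes with other flanks, overlaps, summit windows and peak thresholds, and 1 to 2 genes when a library was left out. The difference in the members' share above all nuclear genes was 26.5 percentage points, between 24.9 and 32.1 under other settings and 19.0 to 34.0 with a library left out. For 35S features the difference was 0.5 without flanks and -0.5 with summit windows, and 0 to 2 when a library was left out (wild_type replicates 2 and 1), so no direction is given for it. The RDN5-6 rank difference was -23.6 percentage points by q-value (exact permutation p = 0.333, with the overlap of the genotypes lost), and -24.4 to -6.39 with a library left out. With summit windows it has no value, as the summit of wild_type replicate 1 lies outside the window. For the strongest 5S peak the rank difference was -21.9 by fold (exact permutation p = 0.333) and -32.7 by q-value (exact p = 0.667). By q-value only wild_type replicate 2 stood apart, at 65.6% against under 1% in the other libraries. The strongest peak by fold was not at 1 copy throughout. It was at RDN5-1 in replicate 1 of both genotypes, at RDN5-2 in yaf9d replicate 2 and at RDN5-6 in wild_type replicate 2. It was the best of 3 called copies in each yaf9d library and of 2 and 1 in wild_type replicates 1 and 2. This rank difference is therefore not separate from the count of called copies. By fold the difference was -32.1 without wild_type replicate 1 to -11.7 without wild_type replicate 2. The RDN5-6 summit offset differed by -449 to -24 bp with a library left out, a check added after the data were seen. Listed genes with a promoter peak differed by -1, by -6 when genes with 300 bp flanks were counted, by -0.5 at a −log10 q of 5 or more, and by -2.5 without yaf9d replicate 2 to 0.5 without yaf9d replicate 1. The causes were not tested. With the replicate number as a replicate block, the difference in covered 5S genes was 1.5 (exact sign-flip p = 0.5, the smallest 2 pairs allow). The block changed no call. The libraries share only a number. Without read totals, the depth at which a missing peak would have been called is unknown.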

Other observations

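At the inner edge of the rDNA, RNH203, a subunit of ribonuclease H2, had a peak in 3 libraries. Its folds were 1.93 and 1.95 in yaf9d and 2.49 in wild_type replicate 1, and wild_type replicate 2, the library without a call at RDN5-1, had none. A further peak of yaf9d replicate 1 alone, with a fold of 2.83, lay between the RNH203 peak and RDN37-1. At the outer side, RPS31, which encodes a ubiquitin and ribosomal protein fusion, had a peak in yaf9d replicate 2 with a fold of 2.24 and in wild_type replicate 2 with a fold of 1.86, and none in the other libraries.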
